A study of Rattus norvegicus with 9 samples.

Results

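Plasma membrane calcium pumps and sodium-calcium exchangers are the proteins that carry calcium out of a cell across its outer membrane, and 10 of their genes were followed here in rat hippocampus. They were chosen by name from the gene expression table: 4 calcium pump genes (Atp2b1, Atp2b2, Atp2b3 and Atp2b4), 3 sodium/calcium exchanger genes (Slc8a1, Slc8a2 and Slc8a3) and 3 potassium-dependent sodium/calcium exchanger genes (Slc24a2, Slc24a3 and Slc24a4). All 10 were among the 21138 genes of the table. The pumps spend ATP to push calcium out with high affinity, so they set the low resting level. The exchangers use the inward sodium gradient kept up by the sodium pump, carry more calcium per unit of time and clear the large loads that follow firing or glutamate release. In neurons both systems end calcium signals at synapses, and in ischaemia the exchangers can also run backwards when the sodium gradient collapses.

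The INS + VD group was male Sprague-Dawley rats, labelled WT and 6 months old, with permanent ligation of both common carotid arteries (2-VO) and then intranasal insulin at 1 U/kg/day. The VD group, a model of vascular dementia, had the same operation and nasal saline in place of insulin. The CK group was unoperated and had nasal saline, so the operation and the ischaemia cannot be told apart in VD against CK. Tissue was taken on day 56, 3 libraries per group were sequenced, and the values are FPKM, fragments scaled to transcript length and to the mapped total of the library. Where nothing says otherwise, a difference is on the log2(FPKM + 1) scale and its p-value comes from limma fitted across 15099 expressed genes. All 10 genes passed the filter on low values (at least 0.5 FPKM in at least 3 of 9 libraries), and none was listed at 0 in any library.

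Several libraries stood apart or went against the tissue label. Slc17a7, the vesicular glutamate transporter of hippocampal pyramidal and granule cells, was at 0.766 FPKM in INS + VD replicate 2 and 30.4 FPKM in VD replicate 2, and between 228 and 740 FPKM in the other 7 libraries. CK replicate 3 held 501 FPKM of Gabra6, a cerebellar granule cell gene, against at most 0.884 FPKM in every other library. VD replicate 2 alone carried the hindbrain genes Hoxb3, Hoxb5 and Hoxc4, with a sum of 47.9 FPKM. VD replicates 1 and 3 had 161 and 231 FPKM of olfactory bulb markers, against at most 18.3 FPKM elsewhere. VD replicate 1 also had 14428 genes above 0, against 17441 to 18088 in the other libraries. In VD replicate 1, 568 genes were at 0 that had more than 1 FPKM in every other library. In no other library did that number exceed 12. Estimated mapped fragments were between 0.919 and 1.017 times CK replicate 1. The lowest estimate, that of VD replicate 1, is less certain, since it rests on 32 low genes, against 143 to 206 for the other libraries compared. Every VD library is therefore among those that stand apart, and no VD value below can be given without them all.

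Upstream sequence was looked up for the genes because members of all 3 families were lower in the same comparison. RefSeq windows on the GRCr8 assembly, each the 250 bases before a gene start, were found for 9 of the 10 genes, all but Atp2b3. Those of Atp2b1, Slc8a3, Slc8a2, Atp2b4 and Slc8a1 lay 194 to 48513 bases inside the outer end of the gene and are not printed. Of the remaining windows, 3 belong to genes that were lower in VD and are given 5′ to 3′, with the letters GGGCGG (a GC box, searched on both strands) in capitals. They lie at chr4:148763654-148763903 (minus strand), chr5:106787811-106788030 (minus strand, the 30 bases that overlap a longer transcript left off) and chr3:153005168-153005417 (plus strand).
Atp2b2: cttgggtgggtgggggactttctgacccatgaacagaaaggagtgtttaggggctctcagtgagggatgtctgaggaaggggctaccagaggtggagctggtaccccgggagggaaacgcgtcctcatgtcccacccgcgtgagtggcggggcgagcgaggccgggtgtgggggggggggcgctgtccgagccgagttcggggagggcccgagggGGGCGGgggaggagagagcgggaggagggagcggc
Slc24a2: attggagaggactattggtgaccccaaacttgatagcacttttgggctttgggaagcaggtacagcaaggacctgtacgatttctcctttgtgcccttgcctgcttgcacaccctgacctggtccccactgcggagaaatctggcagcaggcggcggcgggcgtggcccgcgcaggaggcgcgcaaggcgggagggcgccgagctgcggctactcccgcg
Slc24a3: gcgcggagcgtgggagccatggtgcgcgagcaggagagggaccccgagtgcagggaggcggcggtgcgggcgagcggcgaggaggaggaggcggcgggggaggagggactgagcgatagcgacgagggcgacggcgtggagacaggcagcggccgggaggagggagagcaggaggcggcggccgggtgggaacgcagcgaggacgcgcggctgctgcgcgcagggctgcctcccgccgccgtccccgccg
The Atp2b2 window held 1 GC box and the other windows shown held none. Among the 9 windows 3 had a GC box, and 30.5% of 33469 rat windows of the same length did. The GC content of the full windows was 69.2% for Atp2b2, 65.2% for Slc24a2 and 78.0% for Slc24a3, where the median over all windows was 51.2%. None of the 9 windows held TATAAA, the letters of a TATA box (12.9% of all windows), TGACGTCA, those of a cyclic AMP response element (1.6%), or a MEF2 site (3.4%), each searched on both strands.

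In CK hippocampus the genes were sorted into 3 tiers by mean FPKM, which is a level per transcript length and can be compared between genes. Slc8a2, Atp2b1 and Atp2b2 formed the top tier, with 147 ± 33.2, 107 ± 47.4 and 106 ± 1.11 FPKM (mean ± SD, n = 3 libraries). Slc24a2, Slc24a3, Atp2b3, Atp2b4 and Slc8a1 followed, with means between 18.8 and 64.5 FPKM, and neighbours within this tier overlapped. The first and second tiers overlapped too. In CK replicate 3 Atp2b1, of the first tier, was at 52.5 FPKM and Atp2b3, of the second, at 106 FPKM. Slc8a3 and Slc24a4 were lowest, at 8.22 ± 1.28 and 5.33 ± 3.15 FPKM. The order differed in VD, where Slc8a2 was in rank 6 at 11.7 ± 8.83 FPKM and every gene overlapped its neighbour in rank. In INS + VD, Slc8a2 was in rank 3 at 64.1 ± 43.0 FPKM, and the first gap between neighbours came below Atp2b3, between rank 7 and rank 8.

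**Figure D1:**
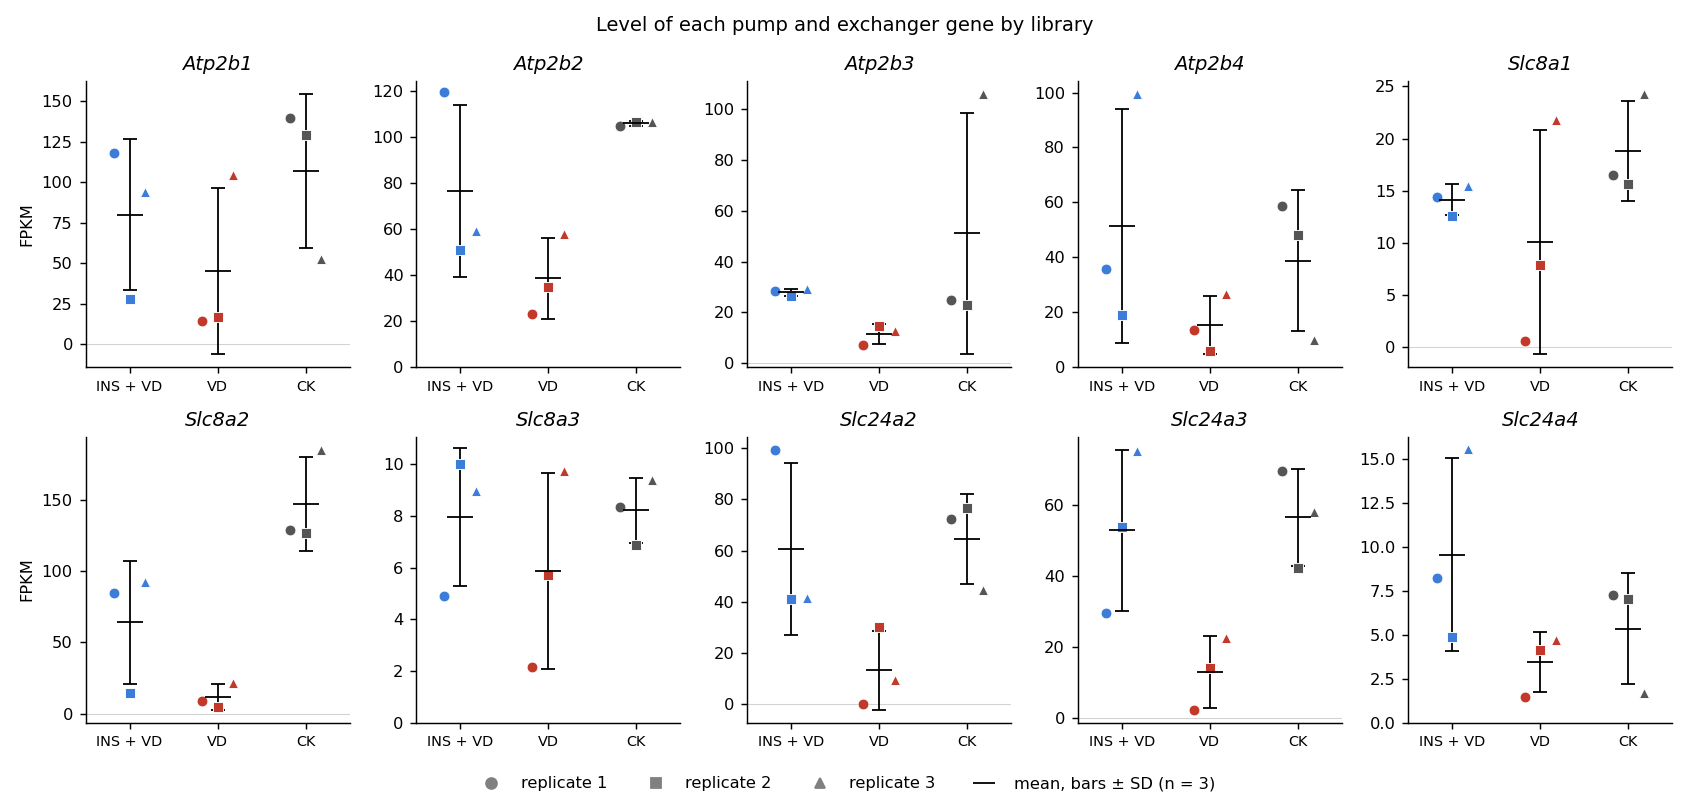
FPKM (vertical axis) of each of the 10 genes in the 9 libraries, grouped as INS + VD, VD and CK, with marker shapes for replicates 1 to 3 and bars for the mean ± SD of 3 libraries. In Slc8a2 the VD libraries sit between 4.54 and 21.5 FPKM and the CK libraries between 127 and 186 FPKM, while in Atp2b4 and Slc8a3 the groups overlap.

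VD against CK asks how the genes stood after chronic cerebral hypoperfusion. All 10 genes had a lower fitted level in VD, and 5 passed an unadjusted p of at most 0.05 with a log2 fold change of at least 1 in size: Slc8a2, Slc24a2, Slc24a3, Atp2b3 and Atp2b2. Over all genes tested 4.89% were lower by this rule. A further 3.89% of all genes were higher by it, and none of the 10 was. The median log2 fold change was -1.61 over the 10 genes and -0.02 over all 15099. No gene passed the adjusted threshold in limma, neither among the 10 nor in the table (0% of genes called), where 1925 genes had an unadjusted p of at most 0.05, and the smallest adjusted p was 0.196. "Lower" in the text that follows means by the unadjusted rule. In bulk tissue fewer cells of a type and less RNA per cell cannot be told apart.

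In the same 5 genes every VD library lay below every CK library, which was so for 8.27% of all genes. The general neuronal markers moved in the same direction. The sum of 6 of them (Snap25, Elavl4, Rbfox3, Stmn2, Map2 and Syt1) was 1228 to 1449 FPKM in VD and 2011 to 2257 FPKM in CK, and 2 of the 6 were lower by the unadjusted rule. The sum of 10 markers of hippocampal excitatory neurons was 73.9 to 419 FPKM in VD and 519 to 912 FPKM in CK. Its largest part in these libraries was Slc17a7, with 30.4 to 286 FPKM in VD and 361 to 740 FPKM in CK. Slc17a7 alone was not past the rule (limma unadjusted p = 0.319). Of 8 excitatory markers tested, 7 had a fold change below 0 (median -1.03), and only 1, Neurod2, was lower by the rule. Glial markers were mixed. Gfap of astrocytes was higher in VD by the unadjusted rule, at 338, 440 and 304 FPKM against 90.3, 119 and 162 FPKM in CK (log2 fold change 1.56), as was Aif1 of microglia (1.64). Aif1 was at 23.8 FPKM in VD replicate 1, and at 5.37 and 6.70 FPKM in VD replicates 2 and 3. Each was the only gene called among 5 markers of its cell type. In both lists 2 of the 5 had a fold change below 0 (medians 0.57 for astrocytes and 0.56 for microglia). All 5 oligodendrocyte markers had a fold change below 0 in VD against CK (median -0.58), and none was called. Their sum was 1123, 13750 and 1720 FPKM in VD replicates 1 to 3. In CK it was 3734 to 4633 FPKM, and in INS + VD at most 7565 FPKM. The part of these shifts in the results on pumps and exchangers was not tested.

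The sodium/calcium exchangers gave the largest difference among the 10 genes. Slc8a2 encodes NCX2, the isoform found mostly in brain, whose loss in mice alters hippocampal synaptic plasticity and memory (ENSRNOG00000001492, chromosome 1, 78025995 to 78060111, plus strand). VD replicates 1 to 3 held 8.87, 4.54 and 21.5 FPKM, against 129, 127 and 186 FPKM in CK replicates 1 to 3. The highest VD library was far below the lowest CK library, and the VD mean was 7.90% of the CK mean. In the fit the log2 fold change was -3.77 (SE 0.72, limma unadjusted p = 5.15e-04, adjusted p = 0.196). It lay between -4.30 and -3.29 when each of the 9 libraries was left out in turn and was -3.12 without VD replicate 2, CK replicate 3 and INS + VD replicate 2 together. Set against the neuronal marker sum, Slc8a2 had 3.67 to 14.9 FPKM per 1000 FPKM of those markers in VD and 60.5 to 82.3 in CK. The groups stayed apart on that scale too, which rests largely on Snap25. Snap25 was the largest part of the marker sum, at 623 to 801 FPKM in VD and 1061 to 1277 FPKM in CK. Its log2 fold change was -0.70, and the median of the 6 markers was -0.86.

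The other members of the family differed less. Slc8a1 encodes NCX1, the widely expressed isoform that dominates in heart. Its FPKM was 0.661, 7.90 and 21.8 in VD and 16.5, 15.6 and 24.3 in CK, so VD replicate 3 lay within the CK range and VD replicate 1 far below it. A log2 fold change of -1.48 was not past the threshold (limma unadjusted p = 0.0889) and was -0.45 without VD replicate 1 and -2.34 without VD replicate 3, where it passed. Slc8a3 encodes NCX3, known from brain and skeletal muscle. It had 2.14, 5.71 and 9.74 FPKM in VD, against 8.37, 6.87 and 9.41 FPKM in CK, with a log2 fold change of -0.59 (95% interval -1.63 to 0.46, limma unadjusted p = 0.237).

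The make-up of the family therefore differed between groups. Slc8a2 supplied 25% to 76.0% of the summed NCX FPKM in VD libraries and 83.9% to 85% in CK libraries. The Slc8a3 share was 18.4% to 31.5% in VD and 4.3% to 5.4% in CK, and that of Slc8a1 was 5.7% to 43.5% in VD and 10.4% to 11.1% in CK. In the potassium-dependent family the Slc24a4 share was also apart, at 8.5% to 35.1% in VD and 1.6% to 5.6% in CK. The 35.1% is that of VD replicate 1, where Slc24a4 was at 1.47 FPKM and the family sum only 4.19 FPKM. These shares are not independent of the fold changes, since the level of every gene of a family enters the total of that family. Among the pumps the shares of VD and CK overlapped for every gene. Atp2b2, for instance, supplied 28.7% to 48.2% in VD and 31.9% to 38.8% in CK.

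**Figure D2:**
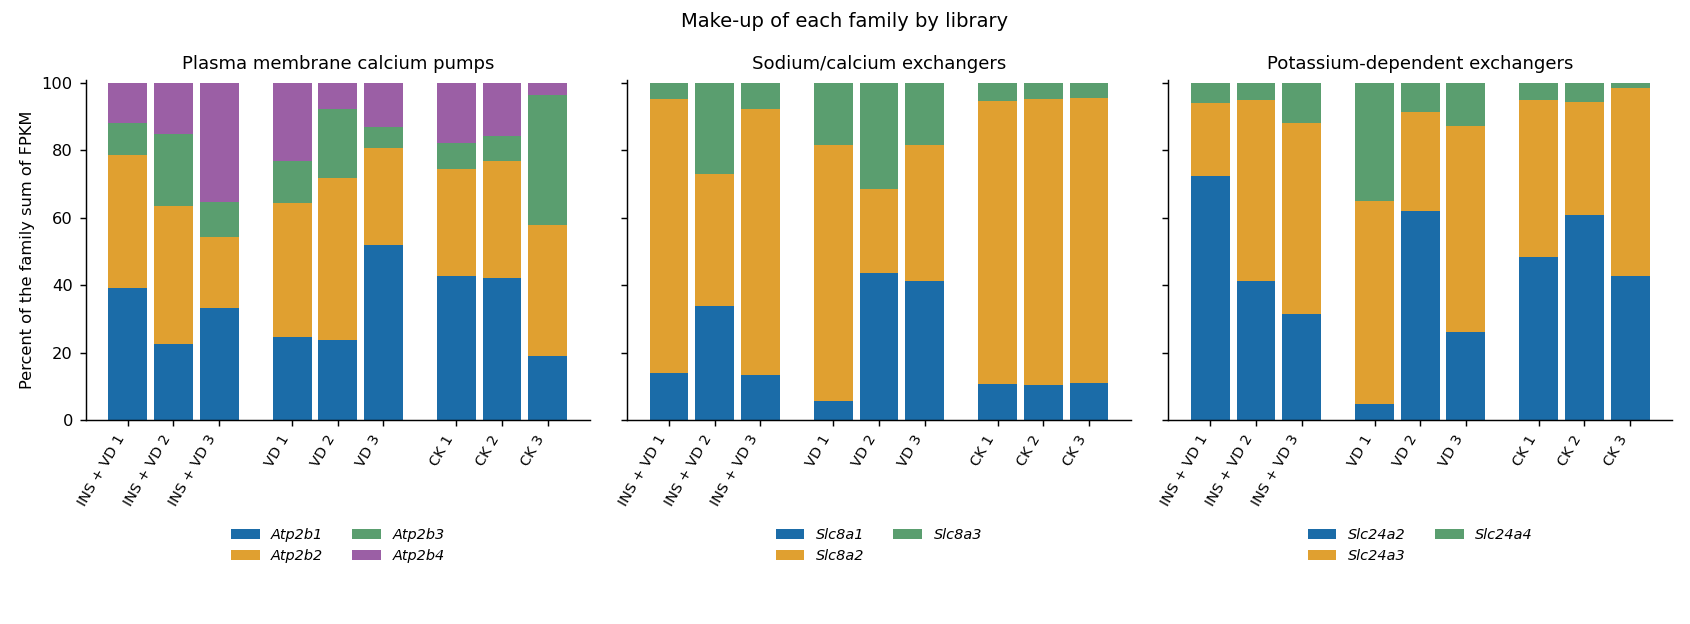
Percent of the summed FPKM of a family (vertical axis, stacked bars) supplied by each gene in each library, for the 4 pumps, the 3 sodium/calcium exchangers and the 3 potassium-dependent exchangers. Slc8a2 fills 83.9% to 85% of the exchanger bars in CK. Slc24a4 has its widest band, 35.1%, in VD replicate 1, where the family sum was only 4.19 FPKM.

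The potassium-dependent exchangers, which also carry potassium outward and are known from neurons and photoreceptors, summed to 29.9 ± 23.1 FPKM in VD and 126 ± 22.4 FPKM in CK, a sum that was not tested, and 2 of the 3 were lower by the rule. Slc24a2 encodes NCKX2, whose loss in mice impairs synaptic plasticity (ENSRNOG00000008169, chromosome 5, 105336262 to 105582375, minus strand). It had 0.197, 30.2 and 9.67 FPKM in VD, against 72.3, 76.7 and 44.5 FPKM in CK. The groups did not overlap, but VD replicate 1 was almost without transcript while VD replicate 2 approached the lowest CK library. A log2 fold change of -3.11 was fitted (SE 0.99, limma unadjusted p = 0.0118, adjusted p = 0.301). Without VD replicate 1 it was -1.81, still past the unadjusted threshold. Per 1000 FPKM of neuronal markers the groups overlapped, with 0.161 to 24.4 in VD and 19.7 to 38.2 in CK.

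Slc24a3 encodes NCKX3, abundant in brain (ENSRNOG00000060687, chromosome 3, 139695028 to 139833967, plus strand). Its level was 2.52, 14.3 and 22.6 FPKM in VD, against 69.4, 42.4 and 57.9 FPKM in CK, with no overlap. Its difference on the log2 scale was -2.38 (SE 0.65, limma unadjusted p = 0.00533, adjusted p = 0.240). It was -1.57 without VD replicate 1 and passed the unadjusted threshold with any 1 library left out. Per 1000 FPKM of neuronal markers it was 2.06 to 15.6 in VD and 21.1 to 32.5 in CK.

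Slc24a4 encodes NCKX4, known from olfactory sensory neurons and enamel-forming cells as well as brain. It was low in every group, at 1.47, 4.14 and 4.67 FPKM in VD against 7.25, 7.05 and 1.69 FPKM in CK, and CK replicate 3 lay inside the VD range. On the log2 scale it differed by -0.44 (95% interval -1.73 to 0.86, limma unadjusted p = 0.465), and -0.97 without CK replicate 3. Its nearest gene over the 9 libraries was Adcy5, the adenylate cyclase most abundant in striatum (Pearson r = 0.966). The summed FPKM of 5 striatal markers was 33.3 to 47.1 in VD and 75.2 to 153 in CK. Most of that sum was Ppp1r1b, with 20.9 to 37.1 FPKM in VD and 65.6 to 133 FPKM in CK, and only 2 of the 5 markers had a fold change below 0 (median 0.02). Its part in the Slc24a4 values was not tested.

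Among the calcium pumps, Atp2b2 and Atp2b3, which encode the fast PMCA2 and PMCA3 found mainly in excitable tissue, were lower by the rule. The widely expressed Atp2b1 and Atp2b4 (PMCA1 and PMCA4) did not reach it. Atp2b2 (ENSRNOG00000030269, chromosome 4, 145703046 to 146016325, minus strand) had 22.9, 34.8 and 57.8 FPKM in VD, against 105, 106 and 107 FPKM in CK. The CK libraries were almost equal, and every VD library was below them. The log2 fold change was -1.53 (SE 0.41, limma unadjusted p = 0.00434, adjusted p = 0.229), and between -1.87 and -1.22 when each library was left out in turn. Per 1000 FPKM of neuronal markers the values were 18.6 to 39.9 in VD and 47.2 to 52.9 in CK, without overlap.

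Atp2b3 (ENSRNOG00000061304, chromosome X, 157239306 to 157312028, minus strand) is the pump gene the study also assayed by quantitative PCR, with the forward primer cttcggtcctcagccagctccatg. For the genes so assayed, Atp2b3 among them, the paper reports the same expression trends by PCR as in its sequencing. It counts them as differentially expressed, while Atp2b3 did not pass the adjusted threshold here. In the deposited values Atp2b3 had 7.13, 14.7 and 12.6 FPKM in VD, against 24.7, 22.8 and 106 FPKM in CK. All VD libraries were below all CK libraries, but CK replicate 3, the library with cerebellar markers, was more than 4 times the other CK libraries. The log2 fold change was -1.75 (SE 0.55, limma unadjusted p = 0.0109, adjusted p = 0.293) with all libraries. Without CK replicate 3 it was -1.04, just past the fold minimum, and without VD replicate 1 as well it was -0.76 and no longer lower by the rule. It was -0.86 with library weights, also not past the rule. Per 1000 FPKM of neuronal markers Atp2b3 overlapped, with 5.81 to 11.9 in VD and 11.3 to 47.0 in CK.

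Atp2b1 had 14.2, 17.0 and 104 FPKM in VD, against 139, 129 and 52.5 FPKM in CK. VD replicates 1 and 2 were below all CK libraries and VD replicate 3 was above CK replicate 3. Its log2 fold change was -1.69 (limma unadjusted p = 0.0655), -2.58 without VD replicate 3 and -2.14 without CK replicate 3, both past the unadjusted threshold. Atp2b4 had 13.3, 5.65 and 26.4 FPKM in VD, against 58.6, 48.0 and 9.55 FPKM in CK. CK replicate 3 was again the lowest CK library, and the log2 fold change of -1.19 (limma unadjusted p = 0.182) was -1.97 and past the unadjusted threshold without it. With VD replicate 3 or CK replicate 3 left out, 7 of the 10 genes were lower by the rule, where 11.9% and 5.09% of all genes were.

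**Figure D3:**
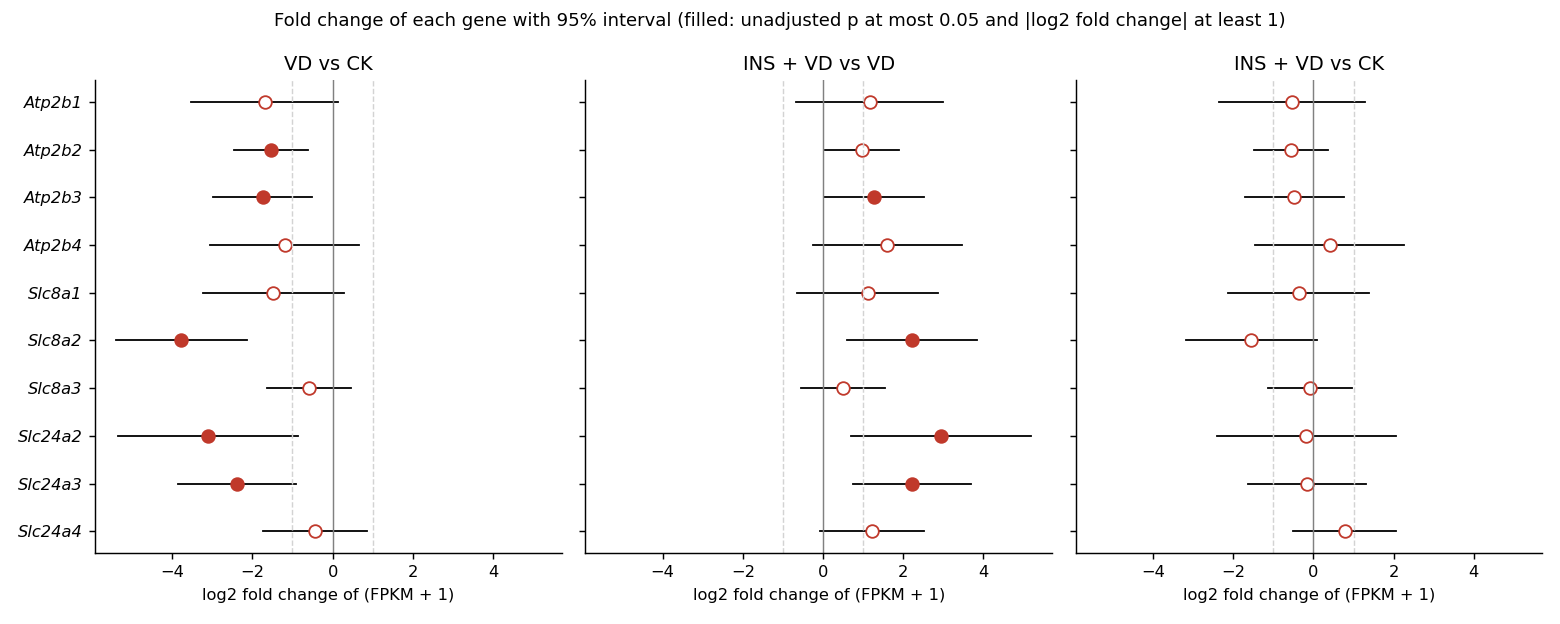
Log2 fold change of FPKM + 1 (horizontal axis) with its 95% interval for each gene in VD against CK, INS + VD against VD and INS + VD against CK, filled where the unadjusted p was at most 0.05 and the change at least 1 in size (dashed lines). Filled points number 5, 4 and 0, and the largest is Slc8a2 in VD against CK at -3.77.

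INS + VD against VD sets intranasal insulin beside nasal saline after the same operation, and its VD libraries are those of the comparison with CK. The methods list 0.5 mL/day of saline for VD and none for INS + VD. Insulin and the fluid given therefore cannot be told apart. All 10 genes had a higher fitted level in INS + VD, and 4 were higher by the unadjusted rule: Slc24a2, Slc8a2, Slc24a3 and Atp2b3. The sum of the 6 neuronal markers also did not overlap, at 1488 to 2056 FPKM in INS + VD and 1228 to 1449 FPKM in VD, and its part in these results was not tested. Per 1000 FPKM of those markers 3 of the 4 genes overlapped: Slc24a2 had 23.7 to 48.4 in INS + VD and 0.161 to 24.4 in VD, Slc24a3 had 14.5 to 42.8 in INS + VD and 2.06 to 15.6 in VD, and Slc8a2 had 9.81 to 52.9 in INS + VD and 3.67 to 14.9 in VD. Over all genes 3.64% were higher by it. A further 2.54% of all genes were lower, and none of the 10 was. The median log2 fold change was 1.24 over the 10 genes and 0.04 over all. No gene passed the adjusted threshold in limma (0% of genes called), with 1417 genes at an unadjusted p of at most 0.05 and a smallest adjusted p of 0.512. Every INS + VD library lay above every VD library for 4 of the 10 genes, Slc24a2, Slc24a3, Slc24a4 and Atp2b3, and for 7.57% of all genes.

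Slc24a2 had 99.4, 41.3 and 41.5 FPKM in INS + VD, against 0.197, 30.2 and 9.67 FPKM in VD. The groups did not overlap, and INS + VD replicate 1 was well above its group neighbours. In the fit the difference was 2.94 on the log2 scale (SE 0.99, limma unadjusted p = 0.0157, adjusted p = 0.512). Leaving out VD replicate 1 gave 1.63, and leaving out INS + VD replicate 1 gave 2.53 with an unadjusted p of 0.0554 in limma, so the call was lost. Slc24a3 had 29.8, 53.9 and 75.03 FPKM in INS + VD, against 2.52, 14.3 and 22.6 FPKM in VD. Its lowest INS + VD library was above the highest VD library, and the log2 fold change was 2.22 (SE 0.65, limma unadjusted p = 0.00789, adjusted p = 0.512). It was 1.41 without VD replicate 1 and passed the rule with any 1 library left out, the only gene of the 10 to do so in this comparison. With INS + VD replicate 2, VD replicate 2 and CK replicate 3 all left out it was 2.41 and missed the rule (limma unadjusted p = 0.0517).

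Slc8a2 had 84.9, 14.6 and 92.7 FPKM in INS + VD, against 8.87, 4.54 and 21.5 FPKM in VD. INS + VD replicates 1 and 3 were well above VD, and INS + VD replicate 2 lay within the VD range. That library is the one with 0.766 FPKM of Slc17a7, and its excitatory marker sum was 62.3 FPKM where INS + VD replicates 1 and 3 had 656 and 902 FPKM. The part of this in its Slc8a2 level was not tested. With all libraries the log2 fold change was 2.22 (SE 0.72, limma unadjusted p = 0.0128, adjusted p = 0.512) and 3.06 without INS + VD replicate 2. The call was lost without INS + VD replicate 1 (1.83), INS + VD replicate 3 (1.77) or VD replicate 2 (1.75).

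Atp2b3 was even among the INS + VD libraries, at 28.5, 26.5 and 29.2 FPKM, against 7.13, 14.7 and 12.6 FPKM in VD. Its groups did not overlap, and unlike the other 3 called genes they stayed apart per 1000 FPKM of neuronal markers, where it was 13.9 to 17.8 in INS + VD and 5.81 to 11.9 in VD. The log2 fold change was 1.27 (SE 0.55, limma unadjusted p = 0.0450, adjusted p = 0.512). This call was lost when any 1 of INS + VD replicate 1 (1.26), 2 (1.31) or 3 (1.25) or VD replicate 1 (0.99) or 3 (1.36) was left out, and it was 0.99 without VD replicate 1 and CK replicate 3. It was also lost with no filter on low values (limma unadjusted p = 0.0508) and under median centring (1.11, limma unadjusted p = 0.0563). The spread of CK replicate 3, at 106 FPKM, enters this fit, and with that library left out the unadjusted p was 0.00298 in limma for the same fold change.

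Atp2b2 had 119, 50.8 and 59.0 FPKM in INS + VD, against 22.9, 34.8 and 57.8 FPKM in VD. VD replicate 3 lay between INS + VD replicates 2 and 3, and the log2 fold change was 0.97 (limma unadjusted p = 0.0414), below the fold minimum. Slc24a4 had 8.24, 4.87 and 15.6 FPKM in INS + VD, against 1.47, 4.14 and 4.67 FPKM in VD, a difference of 1.21 on the log2 scale (limma unadjusted p = 0.0628). Its groups did not overlap, although INS + VD replicate 2 was barely above VD replicate 3. The striatal marker sum likewise did not overlap, at 76.3 to 172 FPKM in INS + VD and 33.3 to 47.1 FPKM in VD.

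For the remaining genes the groups overlapped. Atp2b4 had 35.5, 18.7 and 99.5 FPKM in INS + VD, against 13.3, 5.65 and 26.4 FPKM in VD (log2 fold change 1.60, limma unadjusted p = 0.0834). Atp2b1 had 118, 27.8 and 93.8 FPKM in INS + VD, against 14.2, 17.0 and 104 FPKM in VD, where VD replicate 3 alone reached the INS + VD range (1.16, limma unadjusted p = 0.184). Slc8a1 was even in INS + VD, with 14.4, 12.6 and 15.5 FPKM inside the wide VD range, and its log2 fold change of 1.12 was 0.08 without VD replicate 1 but 1.97 and past the rule without VD replicate 3. Atp2b1 likewise passed without VD replicate 3, at 2.05. Slc8a3 had 4.92, 10.0004 and 8.97 FPKM in INS + VD, overlapping VD, and differed by 0.51 on the log2 scale (limma unadjusted p = 0.303). The count of genes higher by the rule was 1 without INS + VD replicate 1, 2 without INS + VD replicate 3 and 7 without VD replicate 3, where 2.31%, 1.64% and 10.5% of all genes were.

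**Figure D4:**
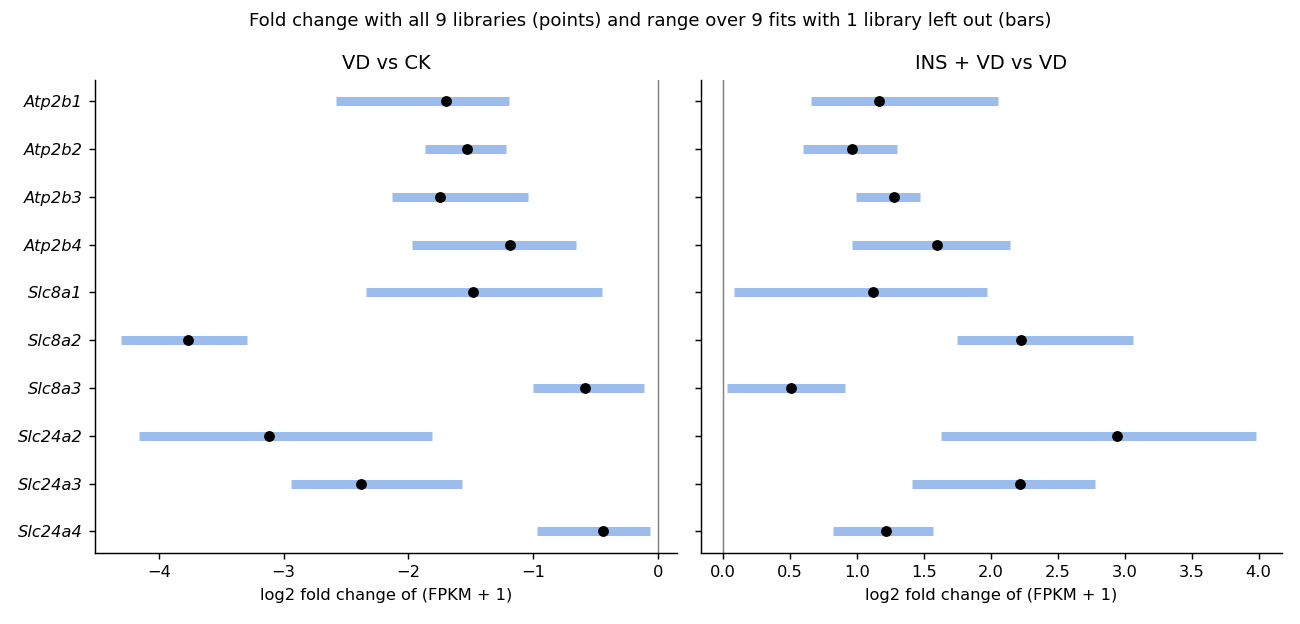
Log2 fold change of FPKM + 1 (horizontal axis) for each gene with all 9 libraries (points) and its range over the 9 fits with 1 library left out (bars), in VD against CK and INS + VD against VD. No bar reaches 0, and the longest in VD against CK is that of Slc24a2, between -4.16 and -1.81.

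INS + VD against CK asks whether insulin-treated rats still differed from unoperated ones. By the unadjusted rule 0 of the 10 genes differed in limma, and the same count held at an unadjusted p of at most 0.05 with no minimum of fold. Over all genes 0.305% were lower and 0.636% higher by the rule, 275 had an unadjusted p of at most 0.05, and 0% passed the adjusted threshold. Slc8a2 had the largest difference, with 84.9, 14.6 and 92.7 FPKM in INS + VD, against 129, 127 and 186 FPKM in CK. Every INS + VD library was below every CK library, but the share of all genes for which this held was not counted in this comparison. The log2 fold change was -1.55 (95% interval -3.17 to 0.08, limma unadjusted p = 0.060, adjusted p = 1). It was -0.53 without INS + VD replicate 2, VD replicate 2 and CK replicate 3, and it passed the rule without INS + VD replicate 1 (-1.93), INS + VD replicate 3 (-2.0) or VD replicate 3 (-1.55).

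The intervals of the other genes were wide, so the absence of a call does not show equal levels. For Slc24a2 the log2 fold change was -0.17 with a 95% interval of -2.42 to 2.07, and for Slc24a3 it was -0.16 with an interval of -1.64 to 1.32. Atp2b2 averaged 76.4 ± 37.4 FPKM in INS + VD and 106 ± 1.11 FPKM in CK (SD, n = 3 each), with a log2 fold change of -0.57. Slc8a1 was at 12.6 to 15.5 FPKM in INS + VD and 15.6 to 24.3 FPKM in CK, ranges that nearly touched. Its log2 fold change was -0.36 (limma unadjusted p = 0.651).

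As sums over families, the 4 pumps gave 235.5 ± 97.2 FPKM in INS + VD, 110 ± 78.9 FPKM in VD and 303 ± 26.5 FPKM in CK (SD, n = 3 each). The 3 sodium/calcium exchangers gave 86.2 ± 42.9 FPKM in INS + VD, 27.6 ± 22.3 FPKM in VD and 174 ± 39.0 FPKM in CK. The 3 potassium-dependent exchangers gave 123.2 ± 20.2 FPKM in INS + VD, 29.9 ± 23.1 FPKM in VD and 126 ± 22.4 FPKM in CK. Only in the potassium-dependent family did the INS + VD sums lie clear of VD (100.1 to 137 against 4.19 to 48.7 FPKM) while overlapping CK (104 to 149 FPKM). The pump and sodium/calcium exchanger sums of INS + VD replicate 2, at 124 and 37.2 FPKM, lay inside the VD range. Sums were not tested.

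**Figure D5:**
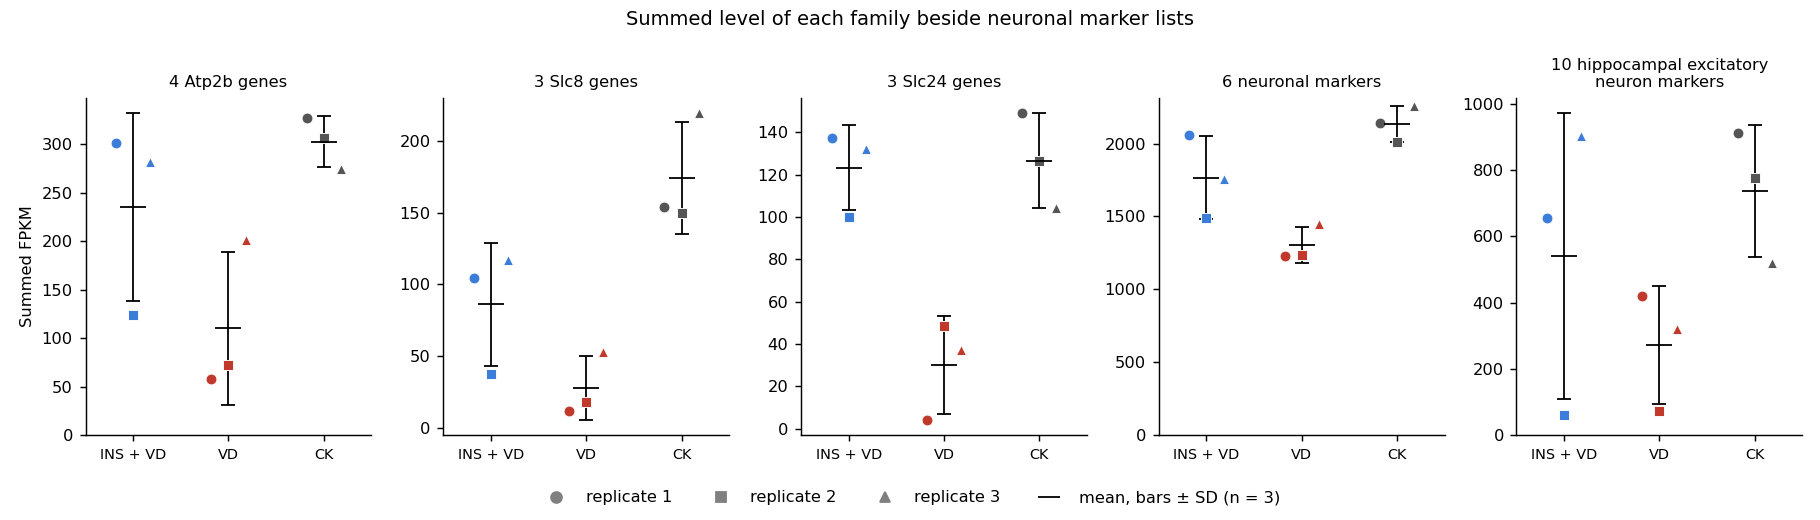
Summed FPKM (vertical axis) of each family beside the sums of 6 general neuronal markers and 10 markers of hippocampal excitatory neurons, by library, with bars for the mean ± SD of 3 libraries. VD sums of the potassium-dependent exchangers, at most 48.7 FPKM, lie below every INS + VD and CK sum, and the excitatory marker sum of INS + VD replicate 2, 62.3 FPKM, is the lowest of all 9.

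Genes that feed or share the work of these transporters were read from fixed lists. In the list of other calcium pumps and exchangers 5 of 8 names passed the filter. There Atp2a2, which encodes the SERCA2 pump that refills the endoplasmic reticulum, was lower in VD, with 64.7, 95.2 and 122 FPKM against 228, 222 and 277 FPKM in CK (log2 fold change -1.40, limma unadjusted p = 0.00119). It was higher in INS + VD than in VD, at 217, 151 and 190 FPKM (1.01, limma unadjusted p = 0.00856). The groups did not overlap in either comparison. The other 4 tested genes of that list passed in neither comparison, and Slc8b1, the mitochondrial exchanger, differed by 0.70 in VD against CK, below the fold minimum.

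None of 6 tested sodium pump genes passed the rule in any comparison. The nearest was Atp1b3, a beta subunit, with 130, 136 and 96.4 FPKM in VD against 52.8, 53.2 and 75.5 FPKM in CK (log2 fold change 0.99, limma unadjusted p = 0.00882), in the direction opposite to the exchangers. None of 5 tested rows for partners and activators of the pumps passed, calmodulin and neuroplastin genes among them. Of 8 calcium buffers and sensors, Vsnl1 and Calb1 were lower in VD than in CK (-1.27 and -2.12) and S100b, an astrocyte gene, was higher (1.24). In INS + VD against VD only Vsnl1, a neuronal calcium sensor, passed (1.08, limma unadjusted p = 0.0429). Calb1, the buffer calbindin, was at 460 FPKM in CK replicate 3, the library with cerebellar markers, and 41.2 and 57.3 FPKM in the other CK libraries.

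The 10 genes did not vary as one block. Over the 9 libraries the Pearson r between pairs ran between 0.05 for Atp2b3 with Atp2b4 and 0.89 for Slc8a1 with Slc8a3, as a description over libraries that share groups and composition. The gene most like Slc8a2 among 13547 candidates was Gas7 (r = 0.988), followed by Shank2, a postsynaptic scaffold (0.976). Atp2b4 was closest to Astn1 (0.977) and Slc24a3 to Fbxo10 (0.986). Atp2b2 was closest to Mief2 (0.970), Atp2b3 to Dab2ip (0.982) and Slc24a2 to Tars3 (0.983). Slc8a3 was closest to Shtn1 (0.991), and Slc8a1 to Syncrip (0.996) after LOC103694328 (0.997). These genes were picked for the highest r among 13547 candidates over only 9 libraries. Without the 2 libraries farthest from the member's median, r ran from 0.878 (Tars3) to 0.983 (LOC103694328) in the pairs named here. For Dab2ip it was then 0.901.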

How the data were processed

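Hippocampal RNA in 9 libraries, 3 each of INS + VD, VD and CK, was analysed, and a sham group is not analysed here. The authors deposited 1 table of FPKM per gene and library with rat Ensembl identifiers. Alignment was with HISAT2, and the program that gave the FPKM is not given in the sources used here. The submitters' processing notes name a mouse build, so positions are given as the table lists them, with no build. Per the labels an RNeasy kit and SMARTER libraries were used, whereas the methods name TRIzol. Read counts were not used, and depth was known only as relative fragments from the steps of low FPKM.

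Values were tested as log2(FPKM + 1), which understates changes of low genes, with limma 3.58.1 (trended prior, R 4.3.3) over all 9 libraries. Genes were kept at 0.5 FPKM or more in at least 3 libraries (15099 of 21138), and p-values were adjusted by Benjamini-Hochberg over them. The study's rule, an adjusted p of at most 0.05 and a log2 fold change of at least 1 in size, was applied, and the same with an unadjusted p. The paper reports differentially expressed genes by its rule in VD against CK and in INS + VD against VD. In the main fit here no gene passed the adjusted rule in either, and the reason for this difference was not tested. The fit was tested on simulated data. The methods call the replicates biological, and the labels name no animals, so p-values measure the spread between these libraries. The members, gene lists and the library omissions in groups were chosen with earlier results of these data known. All 10 genes are described; the most similar gene was the one with the highest Pearson r on the log2 scale, and that of Atp2b1 is not reported here. Alternatives were another pseudocount (0.1), no filter, scaling to equal sums, median centring, an untrended prior, library weights, fits to 6 libraries, a replicate block and leaving out libraries.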

Additional observations from a re-analysis of the deposited data

How the results depend on the processing

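Of the 10 genes, none passed the adjusted threshold under any alternative, and the smallest adjusted p was 0.115 (Slc24a2, VD against CK, without VD replicate 2). Over the whole table, 24 genes in VD against CK and 16 in INS + VD against VD passed it without VD replicate 2, 1 gene in each of these without VD replicate 2, INS + VD replicate 2 and CK replicate 3, and 8 in INS + VD against CK with library weights. Over leaving out each library, the count of genes lower in VD against CK was 5 to 7 (2.46% to 11.9% of all genes), that of genes higher in INS + VD against VD 1 to 7 (1.51% to 10.5%), and that of genes changed in INS + VD against CK 0 to 1 (0.597% to 1.62%). The replicate numbers did not pair the libraries: same-numbered libraries' deviations correlated between -0.317 and 0.383, and differently numbered ones between -0.362 and 0.385. With the replicate number as a block the counts were 5, 4 and 1 in these comparisons (5.36%, 3.91% and 1.24% of all genes), the last being Slc8a2. Equal sums per library moved the median of all genes to -0.194 in VD against CK and 0.218 in INS + VD against VD, and the median of the 10 genes to -1.835 and 1.442. Genes of the whole table called lower and higher were then 1039 and 377 in VD against CK (738 and 588 as reported), and 195 and 847 in INS + VD against VD (383 and 549 as reported). Median centring gave 595 and 864, and 534 and 425, with medians of the 10 genes of -1.435 and 1.081. Neither scaling turned a direction among the 10 genes. Under library weights, Slc8a3 turned to -0.01 in INS + VD against VD. In INS + VD against CK several small values changed sign, and the cause was not tested. Slc24a2 lay between -0.59 and 0.04 over leaving out each library (0.03 when INS + VD replicate 3 was dropped). Slc8a3 lay between -0.25 and 0.19 (0.01 when CK replicate 3 was dropped, with or without VD replicate 1), Slc24a3 between -0.46 and 0.20, and Atp2b1 between -0.97 and 0.10. Atp2b4 lay between -0.38 and 0.95, with -0.38 when CK replicate 3 was dropped, with or without VD replicate 1, -0.22 when INS + VD replicate 3 was dropped, and -0.21 under library weights. Atp2b3 lay between -0.85 and 0.23, with 0.23 when CK replicate 3 was dropped, with or without VD replicate 1, 0.27 when it was dropped with INS + VD replicate 2 and VD replicate 2, and 0.19 under library weights. With 3 libraries per group, 1 library decided several calls, and FPKM without counts gave no counting error for single values.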
